A study of Mus musculus with 18 samples.

Results

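The genes described here build or maintain the sarcomere, the contractile unit of the adult heart muscle cell. They were chosen by name for what their proteins do and not by a threshold on any value measured here, and they make up 34 of the 38355 genes in the count tables. Earlier results of these data were known when they were chosen, so counts of calls among them are not independent of the data. All 34 were found, and all 34 passed the filter on low counts. By role they are 8 genes of the thin filament (Tnnt2, Tnni3, Tnnc1, Tpm1, Tpm2, Tmod1, Lmod2, Lmod3), 5 of the thick filament (Mybpc3, Myl2, Myl3, Mylk3, Unc45b) and 5 of titin and the M-band (Ttn, Myom1, Myom2, Myom3, Obsl1). Another 12 belong to the Z-disc and the intermediate filament (Actn2, Ldb3, Tcap, Myoz2, Nebl, Des, Flnc, Pdlim3, Pdlim5, Synpo2l, Smpx, Cmya5), and 4 to muscle protein turnover (Trim54, Trim55, Trim63, Fbxo32).

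Sarcomeres are repeated along the muscle cell, and each spans from one Z-disc to the next. Actin thin filaments are anchored in the Z-disc by alpha-actinin, myosin thick filaments are held together at the M-band, and titin runs from Z-disc to M-band as a molecular spring. Calcium binding to troponin moves tropomyosin and lets myosin pull, while Z-disc proteins such as desmin and filamin C tie the sarcomere to its neighbours and to the cell surface and carry mechanical load.

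Left ventricular RNA was sequenced from 18 samples of mice of the (DBA/2J x C3HeB/FeJ)F1 background. The WT group (n = 5) had no transgene and no treatment, and all other mice were MHC-cycD2, a transgene that puts cyclin D2, a cell cycle protein, under a myosin heavy chain promoter of heart muscle. These were sham-operated (n = 5), had a transverse aortic constriction (TAC, n = 3, replicates 1, 2 and 4), which loads the ventricle with pressure, or an aortocaval shunt (Shunt, n = 5), which loads it with volume. Surgery took place at 8 weeks. Sham versions of both procedures are described, and which one the sham mice had is not stated. The age at tissue collection is not given in the sources used here. A comparison of sham with WT thus joins genotype and sham surgery, and a loaded group without the transgene was not analysed here. The labels name separate samples and not separate animals, so a p-value reflects only how far these samples vary, which may in part be technical.

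Several facts of the libraries touch the results. The gene counts per library ran from 19297821 to 30594075, and the 34 genes took 7.07% to 8.58% of them. Ccnd2, the gene the transgene adds to, was at a log2 CPM of 7.14 to 7.56 in WT and 14.11 to 14.90 in the transgenic libraries, with 1 exception: in the library labelled cycD2 TAC replicate 2 it was at 7.83, close to WT. By 2 genes of the circadian clock with opposed daily peaks, Arntl and Dbp, the libraries fell into separate states. Arntl was above Dbp in every TAC library, in sham replicates 1 and 2, and in replicates 1, 2 and 3 of WT. Dbp was above Arntl in all 5 Shunt libraries, in sham replicates 3 to 5 and in WT replicates 4 and 5. Y-linked genes were at background in TAC replicates 1 and 2 and all Shunt libraries and were expressed in the others. The ventricular markers Myl2 and Myl3 were among the most abundant of the 34 in every group, at 5445 to 11927 CPM per library. In whole tissue, fewer cells of a type and less RNA per cell cannot be told apart.

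Levels are given as CPM, counts scaled to library size of the libraries, and can be compared between genes only per length. Per kilobase of merged exons, the regulatory and essential myosin light chains Myl2 and Myl3 led in WT, at 4768 ± 471 and 4273 ± 112 CPM per kb (SD, n = 5). Troponin C (Tnnc1) followed at 3806 ± 349 and troponin I (Tnni3) at 2933 ± 201 CPM per kb. With the longest transcript as length these 2 changed places (5495 and 6635 CPM per kb). The titin cap Tcap had 2040 ± 1389 CPM per kb. Titin itself, at 34.9 ± 2.13 CPM per kb, ranked 29 of 34, and the lowest were the tropomyosin Tpm2 at 15.5 ± 3.10, the LIM protein Pdlim3 at 4.19 ± 0.857 and the M-band protein Myom3 at 0.557 ± 0.112 CPM per kb. Myom3 had only 20 to 118 counts per library, so counting error is a large part of its spread.

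**Figure D1:**
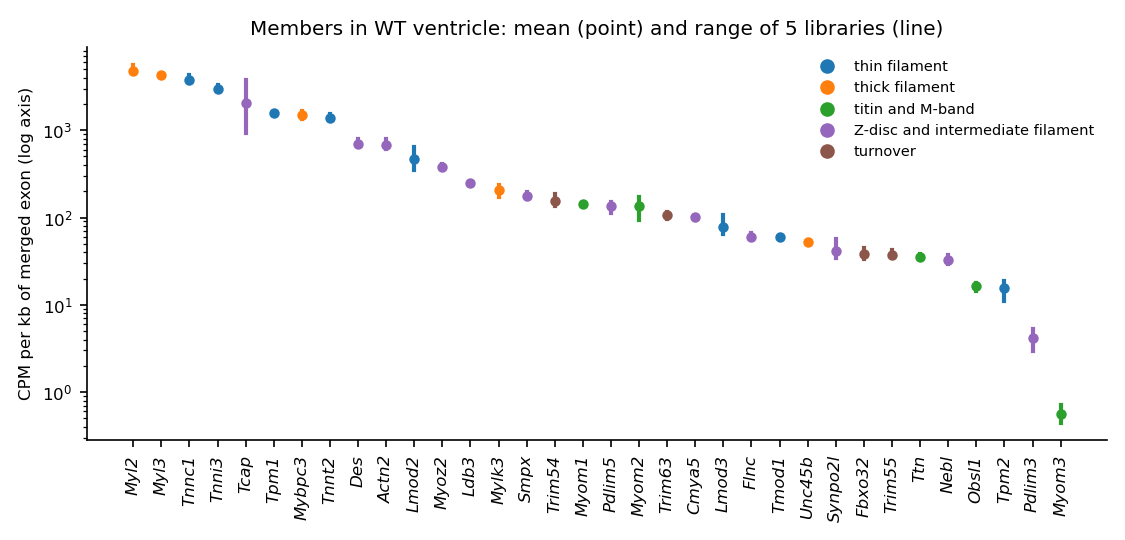
Level of each of the 34 genes in the 5 WT libraries, as CPM per kb of merged exon on a log axis, coloured by role, with the mean as a point and the range as a line. Myl2 (4768), Myl3 (4273) and Tnnc1 (3806) lie at the top and Myom3 (0.557) at the bottom, and Tcap has the longest line.

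Sham ventricles differed from WT in 12 of the 34 genes, 5 of them raised and 7 reduced (edgeR's quasi-likelihood test, Benjamini-Hochberg adjusted p under 0.05 over 14876 genes). Each log2 fold change is given ± its SE. Over all genes tested 28.4% were called in this comparison, 13.5% higher and 14.9% lower. The groups did not overlap for 4 genes upward and 7 downward, against 22.3% of all genes, 10.6% and 11.7% by direction. The median log2 fold change was -0.03 over the 34 and -0.01 over all genes. Those higher were the thin filament cap Tmod1, the myosin chaperone Unc45b, and Nebl, Pdlim3 and Synpo2l of the Z-disc. Those lower were Mybpc3 and Mylk3 of the thick filament, Myom3, Pdlim5 and Smpx, and the ubiquitin ligase genes Trim54 and Fbxo32. Other measures differed between the same groups. The 6 ventricular cardiomyocyte markers, which include Myl2 and Myl3, summed to 77194 to 86692 CPM in sham and 62844 to 73627 CPM in WT. These sums did not overlap, and of the 6 only Myh6 was called, higher in sham. Of the 5 endothelial markers 3 were called lower in sham and 0 higher. Atrial markers summed to 41.6 to 731 CPM in sham and 3.84 to 29.7 CPM in WT, with 2 of 3 called higher, and fast skeletal markers to 21.6 to 36.4 against 2.85 to 3.89 CPM, with 4 of 5 tested called higher. Reads outside genes were 14.9% to 17.9% of a library in sham and 19.003% to 22.8% in WT, without overlap. With the atrial markers as a covariate Nebl, Pdlim3, Smpx and Trim54 lost their call (adjusted p 0.0753 to 0.147), and the part of the other measures was not tested.

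TAC compared with sham gave 11 genes higher and 7 lower, where 30.9% of all genes were called, 16.4% higher and 14.5% lower. Z-disc and filament genes made up 8 of the 11: Actn2, Ldb3, Des, Flnc, Pdlim3, Pdlim5, Synpo2l and Smpx, joined by Tpm2, Mybpc3 and Myom3. The 7 lower were the troponins Tnnt2 and Tnni3, Tmod1, the myosin light chain kinase Mylk3, and Tcap, Nebl and Cmya5 of the Z-disc. Of the 12 Z-disc and intermediate filament genes 8 were higher and 3 lower, with a median log2 fold change of 0.44, and the 4 turnover genes did not pass the test. The groups did not overlap for 8 genes upward and 4 downward, against 28.1% of all genes, 14.5% and 13.6% by direction. The median over all 34 was 0.04 and over all genes tested 0.01.

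Shunt compared with sham gave no call among the 34, in a comparison where edgeR called 0.242% of all genes. At an unadjusted p under 0.05 it had 6 of the 34, and the share of all genes at that level was not counted. DESeq2 called 1 of the 34, Tnnt2, where it called 113 of all genes higher and 115 lower. The groups did not overlap for 3 of the 34, Tnnt2, Tnni3 and Myl2, all lower in Shunt. Of all genes, 2.3% were lower and 1.79% higher without overlap, 4.09% together. The 6 ventricular cardiomyocyte markers, Myl2 among them, summed to 67716 to 75520 CPM in Shunt and 77194 to 86692 CPM in sham. That sum was thus also lower without overlap, and 0 of the 6 were called. The part of heart muscle content in these differences was not tested. All Shunt libraries and no sham library lacked Y-linked transcripts, so the operation and sex by these genes cannot be told apart here.

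Shunt compared with TAC gave 7 genes higher and 12 lower, where 27% of all genes were called, 13.3% higher and 13.6% lower. The higher were Tnni3, Tmod1, Mylk3, Tcap, Nebl, Cmya5 and Trim55, and the lower were Tnnc1, Mybpc3, Myom1, Myom3, Actn2, Ldb3, Des, Flnc, Pdlim3, Pdlim5, Synpo2l and Smpx. The groups did not overlap for 5 genes upward and 8 downward, against 24.7% of all genes, 12.2% and 12.5% by direction. The median log2 fold change was -0.12 over the 34. This comparison and the one of TAC with sham share the TAC libraries, and the 3 comparisons with sham share the sham libraries, so their values below stand side by side and are not independent.

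**Figure D2:**
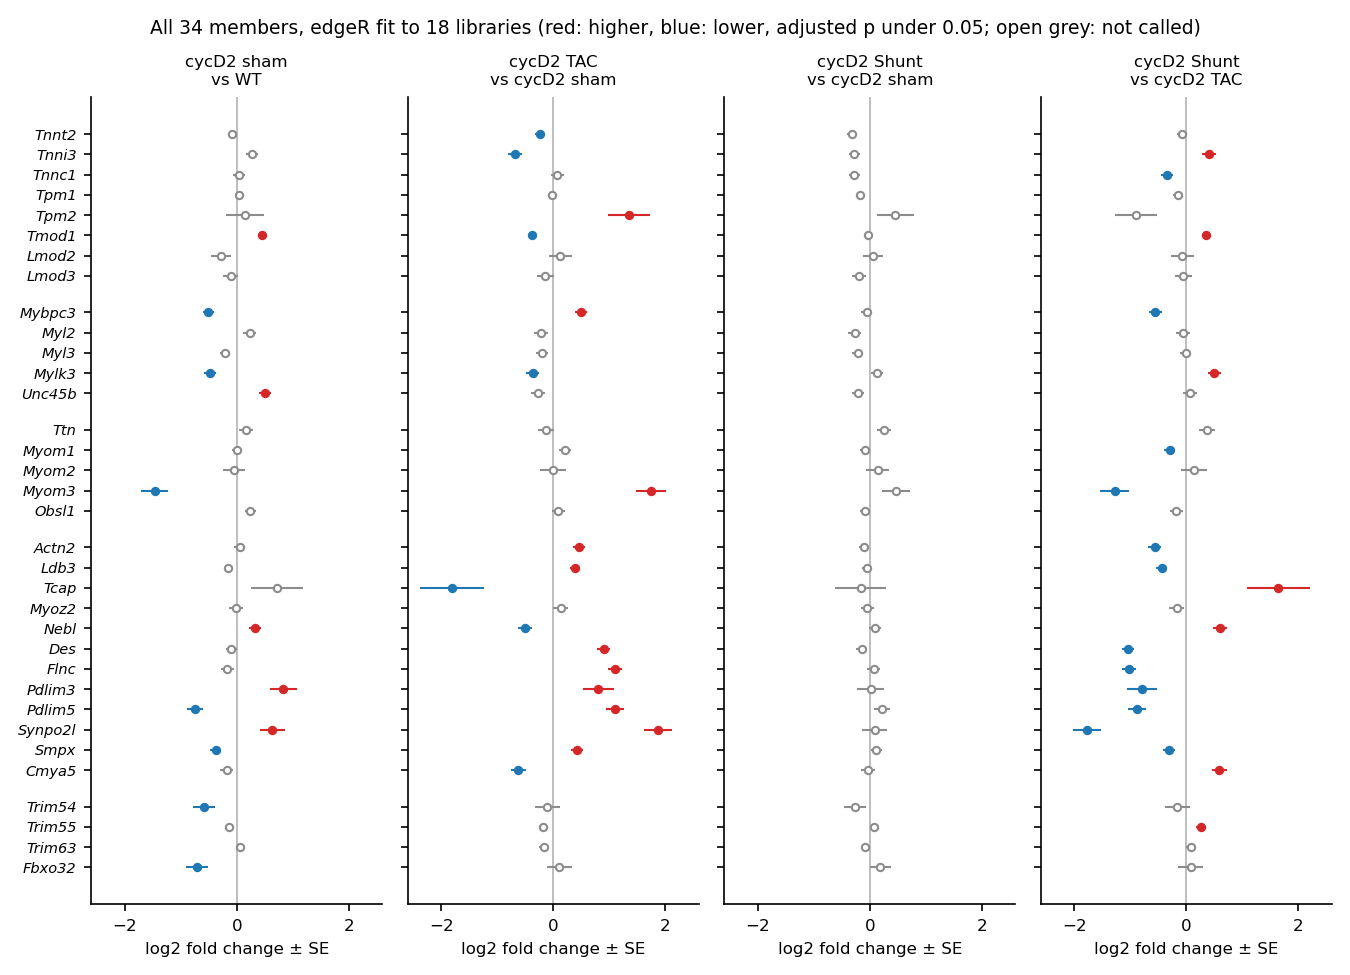
Log2 fold change with its SE for each of the 34 genes in the 4 comparisons, from the edgeR fit to all 18 libraries, ordered by role from thin filament (top) to turnover (bottom); red is higher, blue lower and open grey not called. Synpo2l lies farthest to the right in TAC against sham (1.86), Tcap farthest to the left (-1.81), and no point is coloured in Shunt against sham.

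Among the thin filament genes, the largest difference was in Tpm2, the beta-tropomyosin, which is scarce in the adult mouse ventricle. Values by library are listed from here on in the order of the replicates, 1 to 5 in WT, sham and Shunt and 1, 2 and 4 in TAC. Tpm2 was at 43.8, 54.5, 41.1, 52.9 and 32.5 CPM in WT and at 40.4, 47.9, 39.2, 58.2 and 64.0 CPM in sham. In TAC it had 159, 67.9 and 156 CPM and in Shunt 124, 58.4, 32.4, 37.99 and 89.3 CPM. All TAC libraries lay above every sham library, replicate 2 only just, and Shunt replicates 1 and 5 were high while the other 3 were at the sham level. TAC was 2.55-fold sham (log2 fold change 1.35 ± 0.37, edgeR adjusted p = 0.0127), a call lost without TAC replicate 1 (1.16, adjusted p = 0.0623). The difference of Shunt from TAC was -0.90 ± 0.37 on the log2 scale and missed the threshold (adjusted p = 0.0877), but passed it without TAC replicate 2 (-1.20, adjusted p = 0.0454) or Shunt replicate 1 (-1.23, adjusted p = 0.0146).

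Tnni3 encodes the adult cardiac troponin I, the inhibitory subunit of troponin. It was at 5897, 5826, 5896, 6792 and 5846 CPM in WT and at 7579, 6911, 6876, 8397 and 6776 CPM in sham. TAC libraries had 4215, 3649 and 5834 CPM and Shunt libraries 6281, 6078, 6619, 5449 and 5761 CPM. Every TAC and every Shunt library lay below every sham library, and TAC replicates 1 and 2 lay below all other libraries. TAC was 1.60-fold lower than sham (log2 fold change -0.68 ± 0.12, edgeR adjusted p = 0.000451). Shunt was above TAC by 0.40 ± 0.12 on the log2 scale (adjusted p = 0.0188), a call lost without TAC replicate 1 (0.35, adjusted p = 0.0805) or replicate 2 (0.27, adjusted p = 0.132) and at 0.62 without replicate 4. Against sham, Shunt differed by -0.28 ± 0.10, with an adjusted p of 0.235, and sham differed from WT by 0.27, with an adjusted p of 0.0552 that fell under the threshold in 10 of 22 alternatives, DESeq2 among them (0.28, adjusted p = 0.0311).

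Tmod1, tropomodulin, caps the pointed end of the thin filament and had the steadiest levels of the called genes. It ran from 227 to 246 CPM in WT, 317 to 328 in sham, 218 to 265 in TAC and 301 to 327 CPM in Shunt, so that WT and TAC did not overlap with sham. Sham was 1.38-fold WT (log2 fold change 0.46 ± 0.05, edgeR adjusted p = 1.33e-05), TAC differed from sham by -0.39 ± 0.06 on the log2 scale (adjusted p = 0.000204), and Shunt above TAC by 0.36 ± 0.06 (adjusted p = 0.000554). Its exons overlap those of Tstd2 on the other strand over 32.62% of their length, and the library kit did not keep the strand. Tstd2 is itself among the counted genes, so reads in the shared stretch are ambiguous where strand is ignored and are then counted for neither gene.

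The other thin filament genes moved little. Tnnt2, troponin T, was at 10164, 9412, 9208, 11139 and 10341 CPM in sham, 7770, 8140 and 9595 CPM in TAC and 7552, 8573, 8561, 7714 and 7711 CPM in Shunt. No Shunt library reached the lowest sham library, and only TAC replicate 4 did. The TAC difference was -0.24 ± 0.09 on the log2 scale (edgeR adjusted p = 0.046), a call lost without sham replicates 1, 4 or 5 or TAC replicates 1 or 2, with adjusted p of 0.0706 to 0.195. For Shunt against sham it was -0.33 ± 0.08 (adjusted p = 0.0899). Tnnc1, troponin C, was lower in Shunt than in TAC, with a log2 fold change of -0.34 ± 0.11 on the log2 scale (adjusted p = 0.0322), which was -0.21 without TAC replicate 4 (adjusted p = 0.202) and also missed the threshold without Shunt replicate 3 (0.0753) or 4 (0.0768). Tpm1, the main cardiac tropomyosin, and the filament-length proteins Lmod2 and Lmod3 were not called in any of the 4 comparisons in the edgeR fit to all libraries.

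In the thick filament, Mybpc3, the cardiac myosin-binding protein C, went both ways. It was at 6815, 5665, 5692, 5808 and 6914 CPM in WT and 3750, 3727, 4847, 4837 and 4574 CPM in sham. TAC libraries had 6061, 5608 and 6730 CPM and Shunt libraries 4837, 3679, 3790, 4073 and 4509 CPM. WT and TAC covered the same range, from 5608 to 6914 CPM, and every sham and Shunt library lay below it. Sham was 1.42-fold lower than WT (log2 fold change -0.51 ± 0.10, edgeR adjusted p = 0.00117), TAC was above sham by 0.50 ± 0.11 (adjusted p = 0.00324), and Shunt differed from TAC by -0.55 ± 0.11 (adjusted p = 0.00178).

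Unc45b, a chaperone that folds the myosin head, was at 241, 237, 246, 246 and 222 CPM in WT and 373, 374, 316, 320 and 309 CPM in sham, without overlap. TAC libraries had 275, 212 and 352 CPM and Shunt libraries 246, 291, 346, 307 and 278 CPM. TAC ran from below the lowest WT library (replicate 2) to inside the sham range (replicate 4), and of the Shunt libraries replicate 1 lay inside the WT range, replicate 3 inside the sham range and the others between. Sham was 1.42-fold WT (log2 fold change 0.51 ± 0.11, edgeR adjusted p = 0.00233), and neither load differed from sham past the threshold. Antisense transcripts overlap 9.04% of its exons. Mylk3, the cardiac kinase of myosin light chain 2, was 1.39-fold lower in sham than in WT (log2 fold change -0.48 ± 0.10, adjusted p = 0.00202). It was at 815, 744, 943, 1003 and 924 CPM in WT and 584, 600, 660, 674 and 666 CPM in sham. TAC libraries had 438, 591 and 453 CPM and Shunt libraries 621, 658, 854, 687 and 663 CPM. Sham lay wholly below WT, and TAC replicate 2 lay inside the sham range. TAC differed from sham by -0.37 ± 0.12 on the log2 scale (adjusted p = 0.0246), a call lost without sham replicate 4 or TAC replicates 1 or 4 (adjusted p 0.0504 to 0.126), and Shunt was above TAC by 0.50 ± 0.12 (adjusted p = 0.00502). The ventricular light chains Myl2 and Myl3 were not called in the edgeR fit to all libraries. For Myl2, every Shunt library (8371 to 9473 CPM) lay below every sham library (10251 to 11905 CPM), with a log2 fold change of -0.27 ± 0.11 and an adjusted p of 0.274.

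Titin, encoded by Ttn, was not called by edgeR in any of the 4 comparisons. It was at 3934, 4021, 4505, 3877 and 4029 CPM in WT and 4717, 4366, 5419, 3790 and 4647 CPM in sham. TAC libraries had 5183, 2928 and 4537 CPM and Shunt libraries 4918, 5071, 5931, 6225 and 5069 CPM. TAC replicate 2 was the lowest of the 18 libraries, the other TAC libraries lay within the sham range, and Shunt overlapped the upper part of the sham range. The log2 fold changes were 0.17 ± 0.12 for sham against WT, -0.12 ± 0.14 for TAC against sham, 0.25 ± 0.12 for Shunt compared to sham and 0.37 ± 0.14 for Shunt compared to TAC, with edgeR adjusted p of 0.322, 0.551, 0.364 and 0.0658. Without TAC replicate 2 the TAC difference turned to 0.07. For Shunt compared to TAC, DESeq2 did call Ttn (0.37, adjusted p = 0.0423), and edgeR called it without TAC replicate 1 (0.54, adjusted p = 0.0166), while the value without TAC replicate 2 was 0.17 (adjusted p = 0.358).

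In the M-band, which links the thick filaments at mid-sarcomere, Myom3 was the gene that moved, at low counts. It was at 3.04, 2.94, 2.70, 3.80 and 4.32 CPM in WT and 0.872, 1.09, 1.93, 1.28 and 0.929 CPM in sham. TAC libraries had 4.43, 4.65 and 3.18 CPM and Shunt libraries 2.35, 1.75, 0.939, 1.45 and 1.95 CPM. Sham lay wholly below WT and TAC, and Shunt lay below TAC and overlapped sham. Sham was 2.76-fold lower than WT (log2 fold change -1.46 ± 0.25, edgeR adjusted p = 0.000315), TAC was 3.35-fold sham (log2 fold change 1.75 ± 0.27, adjusted p = 0.000141) and Shunt differed from TAC by -1.28 ± 0.26 on the log2 scale (adjusted p = 0.00165). The abundant myomesin Myom1 was called once, lower in Shunt than in TAC (-0.30 ± 0.10, adjusted p = 0.0397). TAC replicate 2 had 1252 CPM of it and replicates 1 and 4 had 1983 and 1912. That call was lost without TAC replicates 1 or 4 or any of Shunt replicates 1 to 4 (adjusted p 0.0534 to 0.245). Myom2, the fast-fibre myomesin, and Obsl1, an obscurin-like linker of titin and myomesin, were not called.

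The Z-disc holds the genes with the most called rises in TAC. Of these, Synpo2l, Flnc, Pdlim5, Des and Actn2, and Mybpc3 of the thick filament were higher in TAC than in sham under every setting that was run. Synpo2l encodes an actin-binding Z-disc protein. It was at 177, 176, 160, 193 and 263 CPM in WT and 284, 287, 325, 317 and 294 CPM in sham. TAC libraries had 1683, 549 and 1062 CPM and Shunt libraries 425, 266, 261, 299 and 347 CPM. Every TAC library lay above every other library, the TAC libraries differed widely among themselves, and Shunt overlapped sham. TAC was 3.64-fold sham (log2 fold change 1.86 ± 0.25, edgeR adjusted p = 6.24e-05), and Shunt differed from TAC by -1.78 ± 0.25 (adjusted p = 0.000147). Sham was above WT by 0.64 ± 0.22 (adjusted p = 0.0397), a call lost without any of WT replicates 1 to 4 or sham replicates 3 to 5 (adjusted p 0.0588 to 0.0905).

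Flnc encodes filamin C, a muscle actin crosslinker at the Z-disc and the cell surface. It was at 619, 566, 555, 527 and 548 CPM in WT and 581, 571, 467, 454 and 432 CPM in sham. TAC libraries had 1304, 908 and 1008 CPM and Shunt libraries 634, 438, 473, 499 and 593 CPM. The TAC libraries stood above all others, and the other 3 groups overlapped. TAC was 2.14-fold sham (log2 fold change 1.10 ± 0.13, edgeR adjusted p = 1.80e-05), and Shunt differed from TAC by -1.03 ± 0.13 (adjusted p = 4.29e-05).

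Pdlim5, a PDZ and LIM protein that scaffolds kinases at the Z-disc, was at 1344, 1276, 1229, 1009 and 1173 CPM in WT and 841, 780, 637, 713 and 647 CPM in sham. TAC libraries had 1773, 1480 and 1392 CPM and Shunt libraries 1181, 792, 623, 685 and 936 CPM. Sham lay wholly below WT, TAC wholly above WT and sham, and Shunt overlapped sham with replicate 1 in the WT range. Sham was 1.67-fold lower than WT (log2 fold change -0.74 ± 0.14, edgeR adjusted p = 0.00102). TAC was 2.14-fold sham (log2 fold change 1.10 ± 0.16, adjusted p = 9.55e-05), and Shunt differed from TAC by -0.88 ± 0.16 on the log2 scale (adjusted p = 0.000836).

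Des encodes desmin, the muscle intermediate filament that surrounds the Z-discs. It was at 2483, 2496, 2445, 2964 and 2809 CPM in WT and 2272, 2269, 2456, 2805 and 2513 CPM in sham. TAC libraries had 4010, 5659 and 4102 CPM and Shunt libraries 2478, 2146, 2004, 2111 and 2400 CPM. TAC replicate 2 was the highest of all libraries, the other TAC libraries also stood above every library of the other groups, and those groups overlapped. TAC was 1.86-fold sham (log2 fold change 0.90 ± 0.11, edgeR adjusted p = 2.39e-05), and Shunt differed from TAC by -1.04 ± 0.11 (adjusted p = 1.04e-05). An antisense gene overlaps 5.86% of its exons.

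Actn2, the sarcomeric alpha-actinin that crosslinks thin filaments in the Z-disc, was at 2418, 2333, 2385, 2982 and 2664 CPM in WT and 2556, 2527, 2635, 2841 and 2677 CPM in sham. TAC libraries had 3850, 3057 and 4054 CPM and Shunt libraries 2860, 2264, 2209, 2220 and 2762 CPM. TAC lay above all other libraries, TAC replicate 2 closest to them, and the other groups overlapped. TAC was 1.38-fold sham (log2 fold change 0.46 ± 0.11, edgeR adjusted p = 0.00353), and Shunt differed from TAC by -0.57 ± 0.11 (adjusted p = 0.00102). Sham and WT differed by 0.05 ± 0.10 on the log2 scale, with an adjusted p of 0.736.

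**Figure D3:**
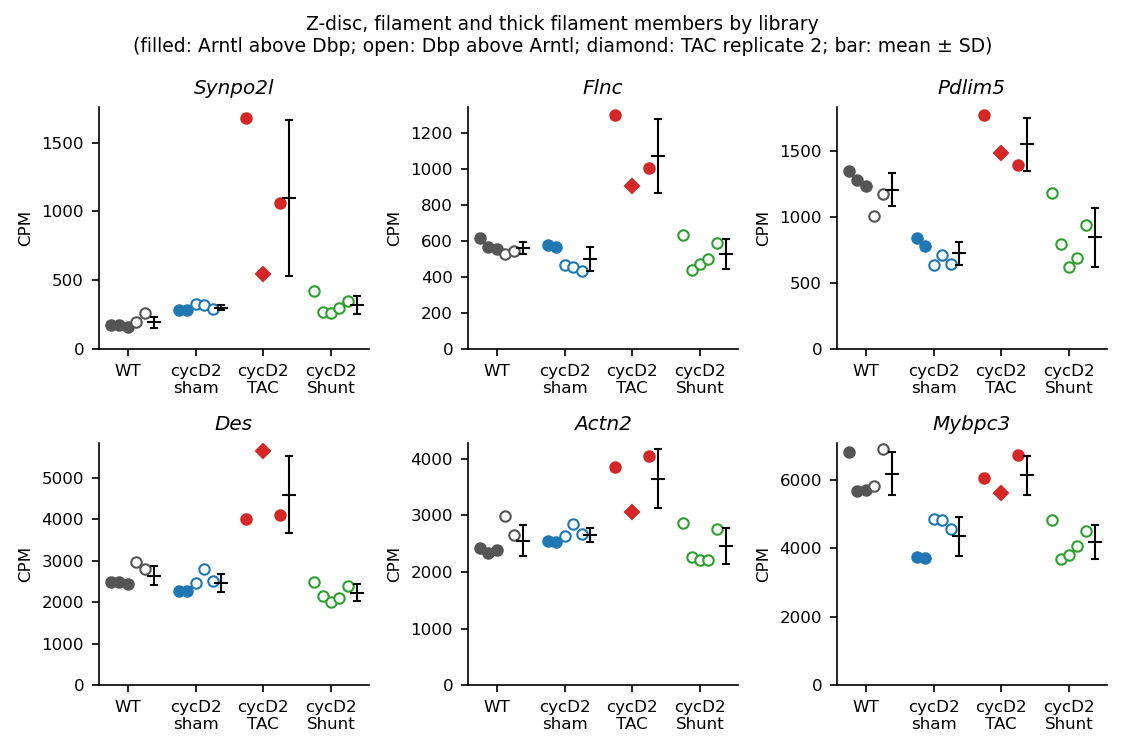
CPM of Synpo2l, Flnc, Pdlim5, Des, Actn2 and Mybpc3 in each of the 18 libraries by group, with the mean and SD beside each group; filled points are libraries with Arntl above Dbp, open points the reverse, and the diamond is TAC replicate 2. All 3 TAC libraries lie above all 5 sham libraries in each panel, and in the Mybpc3 panel TAC (5608 to 6730) lies at the WT level.

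The promoters of these 6 genes are shown because the genes rose together in TAC. Each line gives the 250 bases before the gene's start, 5' to 3' on the gene's strand, from RefSeq on GRCm38.p6, at chr14:20668355-20668604 (minus strand), chr6:29433006-29433255 (plus), chr3:142395697-142395946 (minus), chr1:75360042-75360291 (plus), chr13:12340733-12340982 (minus) and chr2:91117894-91118143 (plus). Capitals mark a match to a muscle factor or clock factor motif.
Synpo2l: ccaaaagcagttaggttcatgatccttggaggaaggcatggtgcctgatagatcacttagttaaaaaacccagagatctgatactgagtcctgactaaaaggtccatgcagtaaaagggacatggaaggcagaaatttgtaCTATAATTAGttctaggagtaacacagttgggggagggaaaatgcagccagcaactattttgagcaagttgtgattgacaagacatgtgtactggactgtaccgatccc
Flnc: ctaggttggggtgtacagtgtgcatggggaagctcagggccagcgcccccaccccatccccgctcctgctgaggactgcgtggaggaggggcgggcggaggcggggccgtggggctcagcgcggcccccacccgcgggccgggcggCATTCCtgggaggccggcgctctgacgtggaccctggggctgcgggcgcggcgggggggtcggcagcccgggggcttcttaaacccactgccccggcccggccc
Pdlim5: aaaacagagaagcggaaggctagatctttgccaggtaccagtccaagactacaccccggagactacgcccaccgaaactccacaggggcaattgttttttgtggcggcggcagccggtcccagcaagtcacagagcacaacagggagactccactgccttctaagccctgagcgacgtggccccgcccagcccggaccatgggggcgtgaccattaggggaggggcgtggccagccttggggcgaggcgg
Des: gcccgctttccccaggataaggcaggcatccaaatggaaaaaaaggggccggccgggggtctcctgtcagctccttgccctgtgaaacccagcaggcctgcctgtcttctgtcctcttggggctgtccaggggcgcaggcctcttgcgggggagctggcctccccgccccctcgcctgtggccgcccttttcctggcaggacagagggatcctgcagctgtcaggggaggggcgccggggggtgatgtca
Actn2: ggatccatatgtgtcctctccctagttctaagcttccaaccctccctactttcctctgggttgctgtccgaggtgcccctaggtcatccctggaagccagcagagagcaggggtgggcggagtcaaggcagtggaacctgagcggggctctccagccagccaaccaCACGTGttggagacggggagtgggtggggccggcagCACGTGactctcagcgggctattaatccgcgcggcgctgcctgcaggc
Mybpc3: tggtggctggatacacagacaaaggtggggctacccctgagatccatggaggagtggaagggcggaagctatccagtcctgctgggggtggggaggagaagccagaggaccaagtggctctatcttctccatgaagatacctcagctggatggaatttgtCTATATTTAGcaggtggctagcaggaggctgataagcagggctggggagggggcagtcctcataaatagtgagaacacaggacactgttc
The motifs, searched on both strands, were the CArG box of serum response factor, the MEF2 site, CATTCC (the M-CAT element of TEAD factors), CACGTG (the E-box of the clock factors, among others, which reads the same on both strands) and TTATGTAA or TTACGTAA (the D-box of Dbp). A MEF2 site began 109 bases before the Synpo2l start and 90 before that of Mybpc3, CATTCC began 104 bases before that of Flnc, and CACGTG began 84 and 48 bases before that of Actn2. The Pdlim5 and Des windows held none of these letters. RefSeq promoters were matched for 29 of the 34 genes, with 39 start sites; the others are Myom2, Fbxo32, Tcap, Lmod3 and Trim55. Of the 39, 28.2% held CATTCC, against 12.6% of all 32851 promoters of the same length; 15.4% held a MEF2 site (all promoters 2.92%), 12.8% a CArG box (1.47%) and 5.13% CACGTG (6.02%). No member window held the D-box, which 0.931% of all promoters held. Windows of a gene can overlap, and both Ldb3 windows held the same CArG box. By gene, 4 of 29 had a CArG box and 5 a MEF2 site. Some starts lay far from the annotated gene start, at most 268608 bases, for a Nebl window with a CArG box. These matches describe letters in a short window and do not show a bound site.

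Pdlim3, another PDZ and LIM protein of the Z-disc, was low in the ventricle. It was at 24.3, 26.9, 20.7, 20.8 and 15.2 CPM in WT and 37.7, 53.8, 26.3, 33.3 and 40.9 CPM in sham. TAC libraries had 87.9, 37.99 and 75.7 CPM and Shunt libraries 50.4, 41.3, 24.1, 35.9 and 42.1 CPM. TAC replicates 1 and 4 stood above all other libraries, while replicate 2 lay inside the sham range. Sham was 1.78-fold WT (log2 fold change 0.84 ± 0.24, edgeR adjusted p = 0.0174). TAC was above sham by 0.81 ± 0.27 (adjusted p = 0.0315), a call that was lost with the replicate number as a block (0.67, adjusted p = 0.0826) and without any of sham replicates 1, 3 and 4 or TAC replicates 1 and 4 (adjusted p 0.0519 to 0.184). Shunt differed from TAC by -0.79 ± 0.27 (adjusted p = 0.0378), which was lost without TAC replicates 1 or 4 or any of Shunt replicates 2 to 5 (adjusted p 0.0507 to 0.198).

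Ldb3, also called cypher, a partner of alpha-actinin, was at 1234 to 1490 CPM in sham and at 1903, 1431 and 1969 CPM in TAC, so TAC replicate 2 lay inside the sham range. TAC was above sham by 0.39 ± 0.09 on the log2 scale (edgeR adjusted p = 0.00424) and Shunt differed from TAC by -0.44 ± 0.09 (adjusted p = 0.00197). The first call was kept with a clock covariate (0.28, edgeR adjusted p = 0.0476) and lost between libraries of the Arntl state (0.26, adjusted p = 0.246). The second was lost with that covariate (-0.30, adjusted p = 0.0705). Smpx, a small X-linked protein of striated muscle, was lower in sham than in WT, with a log2 fold change of -0.38 ± 0.10 (adjusted p = 0.00796), but of -0.19 between libraries of the Dbp state (adjusted p = 0.354) and -0.53 between those of the Arntl state (adjusted p = 0.054). In TAC it was above sham by 0.42 ± 0.11 (adjusted p = 0.00815), but by 0.29 without TAC replicate 2, its highest TAC library (475 CPM), with an adjusted p of 0.0989. In Shunt it differed from TAC by -0.31 ± 0.11 (adjusted p = 0.0486), which was lost without any of TAC replicates 1 and 2 or Shunt replicates 2 to 5 (adjusted p 0.0799 to 0.306).

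The other called Z-disc genes were lower in TAC. Nebl, nebulette, the cardiac nebulin relative that ties thin filaments to the Z-disc, was at 489, 484, 561, 483 and 452 CPM in WT and 637, 615, 661, 565 and 608 CPM in sham. TAC libraries had 503, 356 and 446 CPM and Shunt libraries 511, 692, 756, 742 and 594 CPM. Sham lay wholly above WT and TAC, and Shunt above TAC. Sham was 1.25-fold WT (log2 fold change 0.32 ± 0.10, edgeR adjusted p = 0.027), a call lost without WT replicates 1, 2 or 5 or sham replicate 3 (adjusted p 0.0529 to 0.0657). TAC was 1.42-fold lower than sham (log2 fold change -0.50 ± 0.12, adjusted p = 0.0045), and Shunt was 1.51-fold TAC (log2 fold change 0.60 ± 0.12, adjusted p = 0.00168).

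Cmya5, myospryn, a large desmin-binding protein near the Z-disc, was at 1122, 1161, 1282, 1232 and 1147 CPM in WT and 1028, 1057, 1147, 954 and 1054 CPM in sham. TAC libraries had 786, 525 and 730 CPM and Shunt libraries 734, 1131, 1143, 1184 and 925 CPM. TAC lay below WT and sham, and Shunt replicate 1 lay inside the TAC range while the other 4 did not. TAC was 1.54-fold lower than sham (log2 fold change -0.62 ± 0.14, edgeR adjusted p = 0.00255), and Shunt was above TAC by 0.59 ± 0.14 (adjusted p = 0.00448). Myoz2, calsarcin, a Z-disc inhibitor of calcineurin, was not called in the edgeR fit to all libraries.

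Tcap, telethonin, caps titin at the Z-disc, and its levels fell into separate high and low libraries that followed the clock genes. It was at 1024, 870, 1049, 3588 and 3139 CPM in WT and 1509, 1195, 4140, 5210 and 3845 CPM in sham. TAC libraries had 790, 662 and 1272 CPM and Shunt libraries 3528, 2387, 2813, 2406 and 3052 CPM. All libraries with Arntl above Dbp were at 1509 CPM or below, and all with Dbp above Arntl were at 2387 CPM or above, in every group. Within WT the Dbp libraries had 3.43 times, and within sham 3.25 times, the mean of the Arntl libraries. TAC was 3.50-fold lower than sham (log2 fold change -1.81 ± 0.57, edgeR adjusted p = 0.0252) and Shunt 3.12-fold TAC (log2 fold change 1.64 ± 0.56, adjusted p = 0.0422). With Arntl minus Dbp (log2) added to the fit as a covariate these were -0.45 (adjusted p = 0.221) and 0.17 (adjusted p = 0.715), and TAC against the 2 sham libraries of its own clock state gave -0.58 (adjusted p = 0.167). The TAC call was also lost without sham replicate 4 or TAC replicates 1 or 2 (adjusted p 0.0551 to 0.108), and the call for Shunt against TAC without any of TAC replicates 1 and 2 or Shunt replicates 1 to 5 (adjusted p 0.0527 to 0.160).

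Other genes of the 34 also followed the clock state. In both WT and sham, the Dbp libraries lay above the Arntl libraries without overlap for 10 genes: Lmod2, Lmod3, Myom2, Actn2, Tcap, Myoz2, Des, Synpo2l, Trim54 and Fbxo32. The reverse held for 4: Ldb3, Flnc, Pdlim5 and Trim55. Over all genes tested, 9.08% met the first criterion and 8.56% the second. Lmod2, leiomodin, had 694 to 849 CPM in the Arntl libraries and 1126 to 1280 CPM in the Dbp libraries of WT, and 550 to 645 against 867 to 913 CPM in those of sham. Myom2 had 830 to 1133 against 1443 to 1538 CPM in WT and 898 to 991 against 1200 to 1437 CPM in sham. With 2 or 3 libraries in a state these are values and not tests, and what else the libraries of a state share is not given by the labels. All TAC libraries were in the Arntl state and all Shunt libraries in the Dbp state, so Shunt and TAC cannot be compared within a state.

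**Figure D4:**
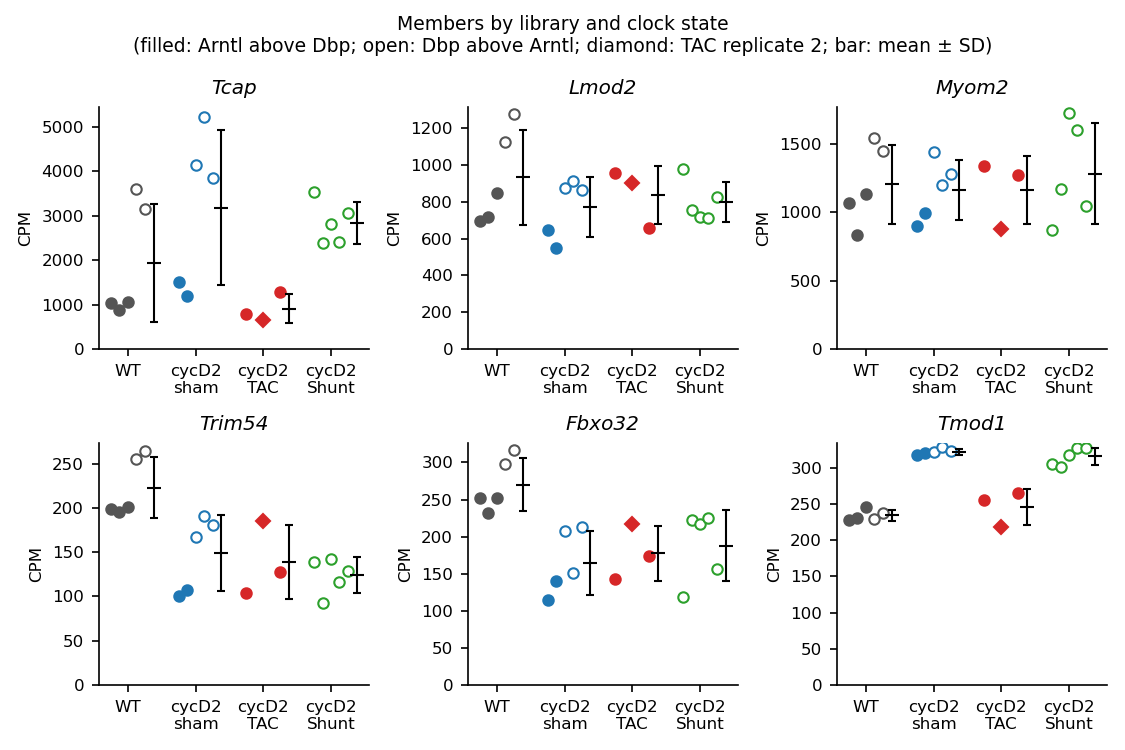
CPM of Tcap, Lmod2, Myom2, Trim54, Fbxo32 and Tmod1 in each of the 18 libraries by group, with the mean and SD beside each group; filled points are libraries with Arntl above Dbp, open points the reverse, and the diamond is TAC replicate 2. Open points lie above filled points in WT and sham in the Tcap, Lmod2, Myom2, Trim54 and Fbxo32 panels, and in the Tmod1 panel sham (317 to 328) and Shunt lie above WT and TAC.

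The rises in TAC were set beside the clock state as well. With the clock covariate, TAC against sham was 2.04 for Synpo2l (adjusted p = 0.000368), 1.03 for Des (4.58e-05), 0.96 for Flnc (0.000250), 0.93 for Pdlim5 (0.00156), 0.66 for Mybpc3 (0.00104) and 0.57 for Actn2 (0.00320), all as log2 fold changes by edgeR. Against the 2 sham libraries of the Arntl state alone they were 1.94, 1.01, 0.89, 0.93, 0.71 and 0.52, with adjusted p of 0.0285, 0.00890, 0.00970, 0.00430, 0.0163 and 0.0395. In that fit Ldb3 (0.26, adjusted p = 0.246), Pdlim3 (0.55, adjusted p = 0.321) and Smpx (0.51, adjusted p = 0.053) lost their call. Among the genes lower in TAC, Mylk3 (-0.26, adjusted p = 0.282), Tnnt2 (-0.21, adjusted p = 0.350) and Tcap (-0.58, adjusted p = 0.167) lost it too. Under the clock covariate Tpm2 (1.39, adjusted p = 0.0525) and Pdlim3 (0.49, adjusted p = 0.243) lost their call. So did Tnnt2 (-0.19, 0.201), Mylk3 (-0.21, 0.206) and Tcap (-0.45, 0.221) among the genes lower in TAC. For Shunt against TAC, state and group cannot be told apart. There the clock covariate ended the calls of Tnni3 (0.33, adjusted p = 0.152), Mylk3 (0.29, 0.138) and Tcap (0.17, 0.715). It also ended those of Tnnc1 (-0.38, 0.0936), Myom1 (-0.28, 0.179), Ldb3 (-0.30, 0.0705), Pdlim3 (-0.35, 0.478) and Smpx (-0.34, 0.129).

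Some genes not called by edgeR in the fit to all libraries were called once the clock state or 1 TAC library was taken into account. With the clock covariate Lmod2 was lower in sham than in WT (-0.42, adjusted p = 0.0121, against -0.28 without it), and also within the Dbp state (-0.42, adjusted p = 0.0471). With the clock covariate Lmod2 was higher in TAC than in sham (0.55, adjusted p = 0.0156). It was not called within the Arntl state (0.49, adjusted p = 0.0988) and was at -0.25 with Y-linked genes as covariate (adjusted p = 0.744). Under the clock covariate Lmod2 (-0.59, 0.0243), Lmod3 (-0.44, 0.0188) and Trim54 (-0.77, 0.00536) were lower in Shunt than in TAC. Trim55 in TAC against sham was not called within the Arntl state (-0.31, 0.0675) and was called lower with the clock covariate (-0.26, 0.024). Myoz2 was called only with TAC replicate 2 left out as well, higher in TAC than in sham (0.47, 0.0139) and lower in Shunt than in TAC (-0.57, 0.0128). Without TAC replicate 2, Myom1 was higher in TAC than in sham (0.37, edgeR adjusted p = 0.000855) and Obsl1 lower in Shunt than in TAC (-0.34, 0.0162). Without TAC replicate 4, TAC was below sham for Myl2 (-0.43, 0.00948), Myl3 (-0.38, 0.00368), Unc45b (-0.48, 0.00626) and Trim63 (-0.28, 0.0289). Sham against WT also gained calls in the pair fitted alone, for Obsl1 (0.25, 0.0109), Myl2, Myl3 and Cmya5, the last 3 with adjusted p of 0.0244 to 0.0389, and DESeq2 called Obsl1 as well (0.26, 0.0476).

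The turnover genes encode ubiquitin ligases of striated muscle: the MuRF family, Trim63, Trim55 and Trim54, which bind titin at the M-band or Z-disc, and Fbxo32, atrogin-1. Fbxo32 was at 253, 231, 251, 298 and 316 CPM in WT and 114, 140, 207, 151 and 213 CPM in sham. TAC libraries had 143, 216 and 174 CPM and Shunt libraries 119, 222, 217, 225 and 157 CPM. Every sham, TAC and Shunt library lay below every WT library. Sham was 1.64-fold lower than WT (log2 fold change -0.71 ± 0.19, edgeR adjusted p = 0.0111). Trim54 was at 199, 195, 201, 255 and 265 CPM in WT and 100, 107, 167, 191 and 180 CPM in sham. TAC libraries had 104, 185 and 127 CPM and Shunt libraries 139, 92.9, 143, 116 and 129 CPM. WT was again the highest group, and the other 3 overlapped. Sham was 1.50-fold lower than WT (log2 fold change -0.58 ± 0.19, adjusted p = 0.0334), a call lost without WT replicates 4 or 5 or sham replicates 1 or 2 (adjusted p 0.0788 to 0.0977), and between libraries of the Arntl state it was -0.93 (adjusted p = 0.0361). An antisense gene that the files do not count overlaps 26.6% of the Trim54 exons. Trim55 was higher in Shunt than in TAC by 0.25 ± 0.08 on the log2 scale (adjusted p = 0.0219), a call lost without TAC replicates 1 or 2 or Shunt replicate 3 (adjusted p 0.0525 to 0.0914). Trim63, MuRF1, was not called in the edgeR fit to all libraries.

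TAC replicate 2, the library with Ccnd2 near the WT level, was the lowest of the 3 TAC libraries for 23 of the 34 genes and the highest for 6. How often it was lowest or highest over all genes was not counted. Of the 3 it also had the lowest summed cardiomyocyte markers (49979.6 CPM) and the highest summed fibroblast markers (4688 CPM). Without it, TAC against sham was 2.17 for Synpo2l, 1.19 for Flnc, 1.11 for Pdlim5, 0.70 for Des, 0.56 for Actn2 and 0.54 for Mybpc3 on the log2 scale, with edgeR adjusted p of 6.86e-06, 3.03e-05, 0.000516, 0.000175, 0.00170 and 0.00633. Tpm2 (1.64, adjusted p = 0.00779), Pdlim3 (1.08, adjusted p = 0.00653) and Myom3 (1.63, adjusted p = 0.00106) also kept their call. Only 2 TAC libraries then remained.

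With the mean log2 level of the Y-linked genes Ddx3y, Uty, Kdm5d and Eif2s3y as a covariate, 7 genes stayed higher in TAC than in sham: Synpo2l (1.804, adjusted p = 0.0192), Flnc (1.00, 0.0126), Pdlim5 (0.95, 0.0451), Des (0.73, 0.0226), Mybpc3 (0.64, 0.0462), Actn2 (0.62, 0.0428) and Ldb3 (0.55, 0.0336). Tpm2, Myom3, Pdlim3 and Smpx did not (1.67, 1.36, 0.99 and 0.21, adjusted p 0.116, 0.0702, 0.205 and 0.546). All 7 genes lower in TAC lost their call, with log2 fold changes of -0.06 for Tnnt2, -0.31 for Tnni3, -0.28 for Tmod1, -0.50 for Mylk3, -1.32 for Tcap, -0.47 for Nebl and -0.53 for Cmya5. Over all genes tested, 233 were called higher and 140 lower in TAC with this covariate, against 2440 and 2160 without it, so calls were lost in general. In the fit with the covariate TAC was the only group to hold both high (replicate 4) and low (replicates 1 and 2) Y-linked levels.

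Markers of heart muscle and of other cells were set beside the TAC changes, because Flnc, Des, Pdlim3, Pdlim5 and Tpm2 are also made by smooth muscle or other cells. The 6 ventricular cardiomyocyte markers, which include Myl2 and Myl3, summed to 70006, 49979.6 and 78271 CPM in TAC and 77194 to 86692 CPM in sham, so that only TAC replicate 4 reached the sham range, and Pln, Myh6 and Ryr2 were called lower. All 6 fibroblast markers were higher in TAC than in sham, and their summed level was 2016 to 4688 CPM in TAC against 959 to 1624 in sham, with no overlap. Of the 5 smooth muscle markers only Cnn1 was higher, and the summed level was 675 to 1517 CPM in TAC and 599 to 1245 in sham. Of the 5 endothelial markers 4 were higher, with sums of 1089 to 1208 CPM against 785 to 1056. The 3 atrial markers summed to 46.6 to 362 CPM in TAC and 41.6 to 731 in sham. Fast skeletal markers summed to 19.6, 2.96 and 19.8 CPM in TAC replicates 1, 2 and 4 and 21.6 to 36.4 in sham. TAC replicate 2 thus lay in the WT range of these markers (2.85 to 3.89 CPM). The markers of fibroblasts, smooth muscle and endothelium were above 0 in every library, and the part of these cells in the changes of the 34 genes was not tested.

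Genes around the 34 were read from 3 lists of related genes, also chosen with earlier results of these data known. In TAC against sham, where 16.4% of all genes were higher and 14.5% lower, 15 of 37 other sarcomere genes were higher and 4 lower. The median log2 fold change of the 37 was 0.29. First by p among the higher were Xirp2, a Xin-repeat protein (1.91 ± 0.17), Fhl1, a LIM protein that binds titin (2.35 ± 0.22), the muscle LIM protein Csrp3 (0.54 ± 0.08) and the light chain Myl12a (0.86 ± 0.13). Among the lower were Lrrc39 of the M-band (-0.62 ± 0.06), the formin Fhod3 (-0.50 ± 0.09), the adult myosin heavy chain Myh6 (-0.54 ± 0.14) and the actin-capping Capza2 (-0.19 ± 0.06). Their edgeR adjusted p ran from 2.44e-06 for Xirp2 to 0.0214 for Capza2. Between sham and WT, where 13.5% of all genes were higher and 14.9% lower, 5 of the 37 were higher and 6 lower. Myh7 (0.47 ± 0.10) and Tmod4 (-2.04 ± 0.29) came first by p among them.

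Of 34 genes of the costamere, which anchors the sarcomere to the cell membrane, and of the intermediate filaments, 12 were higher and 6 lower in TAC than in sham, led by Sorbs2 (1.26 ± 0.13) and synemin, Synm (1.05 ± 0.13), among the higher and the desmosomal Dsg2 (-1.05 ± 0.14) among the lower. Over all genes tested 16.4% were higher and 14.5% lower in this comparison. Of 33 genes of muscle protein turnover and sarcomere chaperones, 9 were higher and 9 lower. First among these were Klhl40 (0.97 ± 0.11), Klhl31 (0.62 ± 0.10), Fbxo40 (0.72 ± 0.12) and the small heat shock protein Cryab (0.63 ± 0.13) among the higher, and Asb15 (-1.08 ± 0.16) and Cul3 (-0.29 ± 0.06) among the lower. Against WT, sham had 13.5% of all genes higher and 14.9% lower. It had 5 higher and 10 lower in the costamere list and 2 higher and 7 lower in the turnover list. In the turnover list Klhl31 (-0.62 ± 0.09) and Hspb8 (-0.39 ± 0.08) were among the 4 lower genes with the smallest p. Shunt against sham gave no edgeR call in any of the 3 lists, in a comparison where 0.242% of all genes were called.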

How the data were processed

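Left ventricle RNA of 18 samples was prepared with the TruSeq RNA v2 kit, which keeps no strand, per the labels' protocols. The authors deposited raw counts of reads per gene; the submitters' processing notes name CASAVA 1.8.2, STAR 2.3.0e, SAMtools 0.1.19, HTSeq 0.6.1p1, DESeq2 1.8 and the build GRCm38 (mm10). The annotation release and strand setting are not given in the sources used here. Reads outside genes were 19.003% to 22.8% of a library in WT, 14.9% to 17.9% in sham, 13.6% to 14.9% in TAC and 15.0% to 19.9% in Shunt, and ambiguous reads 1.81% to 2.16% of a library in TAC and 1.43% to 1.54% elsewhere, and were left out of library sizes. Reads shared by overlapping counted genes are among the ambiguous reads.

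Gene IDs were named with GENCODE M21 (36602 of 38355 matched; unmatched IDs took no more than 0.160% of any library). All 18 libraries were fitted together in edgeR 4.0.16 (R 4.3.3) with filterByExpr at a minimum count of 10, TMM scaling and the robust quasi-likelihood test; the biological coefficient of variation was 0.160. The SE was derived from the F statistic, as the size of the log2 fold change divided by its square root. The fit was tested on simulated data. All 34 genes are named; those called with a log2 fold change of at least 0.5, and Ttn and Actn2, get values by library, and genes of other lists are named by smallest p, up to 4 a direction. The genes and lists were chosen with earlier results of these data known.

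Deviations from the group means correlated between same-numbered TAC and sham libraries at 0.118, 0.155 and 0.129 for replicates 1, 2 and 4. TAC replicates 1 and 2 correlated best with sham replicates 3 and 5, and only TAC replicate 4 with its own number. Same-numbered Shunt and TAC libraries correlated at 0.168, 0.147 and 0.0926, each the best match of the Shunt library. The labels do not say what a number shares, so the replicate block was run as an alternative and a pairing was not shown. Alternatives were other filters, scalings, DESeq2 1.42.0, covariates (clock genes, Y-linked genes, atrial markers), each pair fitted alone and each library left out. Fits within one clock state, and the clock covariate without TAC replicate 2, were added after seeing the data.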

Additional observations from a re-analysis of the deposited data

Results flagged for a closer look

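In 102 groups of 5 libraries, each 1 gene in 1 group, 5 had a highest library that stood apart from the other 4 by a Dixon ratio above 0.71 on log2 CPM. Chance flags about 1 in 20 groups. They were Tnni3 in WT replicate 4 (6792 CPM, the others 5826 to 5897), Myl2 in WT replicate 4 (10916 CPM, the others 8702 to 9136), Ttn in WT replicate 3 (4505 CPM, the others 3877 to 4029), Smpx in Shunt replicate 1 (402 CPM, the others 301 to 327) and Trim55 in WT replicate 3 (114 CPM, the others 95.1 to 97.9).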

How the results depend on the processing

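Mybpc3, Actn2, Des, Flnc, Pdlim5 and Synpo2l, 6 of the 11 genes higher in TAC than in sham, kept their call under every alternative run, and 0 of the 7 lower did. For sham against WT only Tmod1 and Myom3 did. The count of genes higher in sham than in WT was 5, and 8 with the Y-linked covariate, 3 with the atrial covariate, 8 with the pair fitted alone, 1 within the Arntl state, 2 within the Dbp state and 3 to 6 with 1 library left out; the count lower was 4 within the Dbp state and 6 to 7 with 1 left out. For TAC against sham the Y-linked covariate left 7 higher and 0 lower, and there were 4 lower within the Arntl state, and 9 to 11 higher and 4 to 10 lower with 1 library left out. For Shunt against sham DESeq2 called 1 lower. For Shunt against TAC 4 were higher with the clock covariate, also without TAC replicate 2, and 4 to 7 higher and 8 to 13 lower with 1 left out. With the replicate block, 10 were higher and 7 lower for TAC against sham, and 6 and 8 for Shunt against TAC. The sign turned for Actn2 in sham against WT (-0.038 within the Dbp state), for Ttn in TAC against sham (-0.30 to 0.067 with 1 library left out, the latter without TAC replicate 2, and 0.078 with the clock covariate as well), for Tnni3 (0.33), Myl2 (0.32), Myom3 (-0.094) and Actn2 (0.14) in Shunt against sham with the Y-linked covariate, and for Tcap in Shunt against TAC (-0.036, clock covariate without TAC replicate 2). Of these comparisons only that of Tcap was called in the edgeR fit to all libraries. Among other comparisons not called, the sign turned with the Y-linked covariate for Lmod2 (-0.25), Myl2 (0.14), Myl3 (0.12), Unc45b (0.067) and Trim63 (0.029) in TAC against sham. It also did so for Lmod3 (0.048) and Obsl1 (0.025) in Shunt against TAC. For Myl2 in TAC against sham it turned as well with the clock covariate without TAC replicate 2 (0.0059). With 1 library left out it ran from -0.0097 to 0.30 for Myoz2 in TAC against sham, and in Shunt against TAC from -0.22 to 0.034 for Lmod2, -0.099 to 0.042 for Lmod3, -0.34 to 0.0038 for Obsl1 and -0.33 to 0.11 for Trim54. The atrial covariate ended the calls of Nebl, Pdlim3, Smpx and Trim54 in sham against WT (adjusted p 0.0753, 0.0945, 0.0779 and 0.147). The median level per kb was 139 CPM with merged exons and 238 with the longest transcript as length. Over all genes, TAC against sham gave 233 higher and 140 lower with the Y-linked covariate and 829 and 666 within the Arntl state; sham against WT gave 487 and 652 within the Arntl state and 949 and 860 within the Dbp state; Shunt against TAC gave 1076 and 1052 with the clock covariate, 626 and 673 without TAC replicate 2 as well, and 1308 and 1445 fitted alone; Shunt against sham gave 113 and 115 by DESeq2, 30 and 28 with the clock covariate and 0 and 0 with the Y-linked covariate. Over all genes, sham against WT gave 2004 higher without a covariate. This was 2151 with the Y-linked covariate, 1628 with the atrial covariate and 2330 fitted alone. With the replicate block, TAC against sham gave 2233 higher and 1896 lower, and Shunt against TAC 1663 and 1730. With 1 library left out, sham against WT gave 1556 to 2062 higher and 1771 to 2027 lower. TAC against sham then gave 1633 to 2600 and 1624 to 2324, and Shunt against TAC 1346 to 2158 and 1357 to 2198. The cause of these changes was not tested. Depth limits Myom3 most among the 34.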
